A study of Zea mays with 24 samples.

Results

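Inflorescence branching genes of maize (Zea mays) were followed in the developing ligule, the fringe of tissue between leaf blade and leaf sheath. The set holds 9 genes known from mutants with altered tassel or ear architecture, named by identifier in the rule that defines the set: ra1 (GRMZM2G003927), ra3 (GRMZM2G014729), gt1 (GRMZM2G005624), zfl1 (GRMZM2G098813), zfl2 (GRMZM2G180190), ids1 (GRMZM5G862109), ba1 (GRMZM2G397518), bd1 (GRMZM2G307119) and bad1 (GRMZM2G110242). They are 9 of the 109715 gene identifiers measured, and all 9 were found. The name zfl2 comes from the list by which the genes were chosen, since the RefSeq gene table used for names does not pair it with this identifier.

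Branching of the maize inflorescence depends on whether each lateral meristem starts, keeps its identity and stops growing, and these genes act at those steps. The ligule arises in the leaf, at the preligule band, a strip of small cells at the boundary of blade and sheath. Both places are boundaries where an organ grows out, and the stated purpose of the study was to find genes that act at the blade and sheath boundary and downstream of LG1, the product of the liguleless gene lg1.

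The data are polyadenylated RNA from laser-microdissected leaf primordia of the inbred B73, in 24 libraries that form 8 groups of 3. At plastochron 7 (P7, the seventh youngest leaf), wild-type primordia gave pieces of the preligule band (ligule), of pre-blade tissue (blade) and of pre-sheath tissue (sheath). The pieces were 100 µm high, with blade and sheath pieces 50 µm from the ligule piece. These 3 regions were taken either from the adaxial L1 alone, the epidermis of the upper leaf side (replicates 1 to 3), or through all cell layers (replicates 3 to 5). At plastochron 6 (P6), tissue between 400 and 900 µm from the leaf base was taken through all layers from lg1-R plants, which carry a mutant allele of lg1, and from wild-type siblings. Each library pooled 5 to 6 plants and its RNA was amplified linearly before sequencing. The labels do not give the lesion of lg1-R, and the P6 piece is not limited to the preligule band.

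Total counts per library lay between 3.82 and 52.7 in units of 1e6, with the smallest library in the adaxial L1 ligule (replicate 2). Levels are normalised CPM (counts per 1e6), given as mean ± SD over 3 libraries unless a library is named. The band markers fitted the labels in P7: lg1 and the WOX gene ns1 together stood at 23.9 to 49.5 CPM in the adaxial L1 ligule and 4.3 to 20.4 CPM in the all-layers ligule, against at most 1.1 CPM in any blade or sheath library. The summed level of 5 epidermis markers was 1030 to 3170 CPM in the adaxial L1 libraries and 415 to 694 CPM in the P7 all-layers libraries. Among these markers gl1 had no count in the adaxial L1. The sum of 3 photosynthetic markers was not 0 in that layer, with medians of 9.67, 2.16 and 8.02 CPM in ligule, blade and sheath. Through all layers its medians were 26.8, 13.2 and 44.0 CPM. In P6, lg1 itself was not lower in the plants labelled lg1-R (2.36, 2.08 and 2.87 CPM) than in wild type (0.635, 2.17 and 1.29 CPM; log2 fold change 0.89, SE 0.43, adjusted p = 0.78), so its level does not check that label. Adaxial L1 blade replicate 1 carried 462 counts of the KNOX meristem gene kn1, against 24 and 0 in the other blade libraries of that layer. Adjusted p-values are those of edgeR (quasi-likelihood F test), adjusted by Benjamini-Hochberg over every gene tested.

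Only ids1, zfl1 and zfl2 had more than 10 counts summed over the 24 libraries. The other 6 genes were at or near 0 in every group, a class that holds 18.2% of the 2581 identifiers with a gene name and 73% of all identifiers. The plot of the 9 genes by group shows this division.

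**Figure D1:**
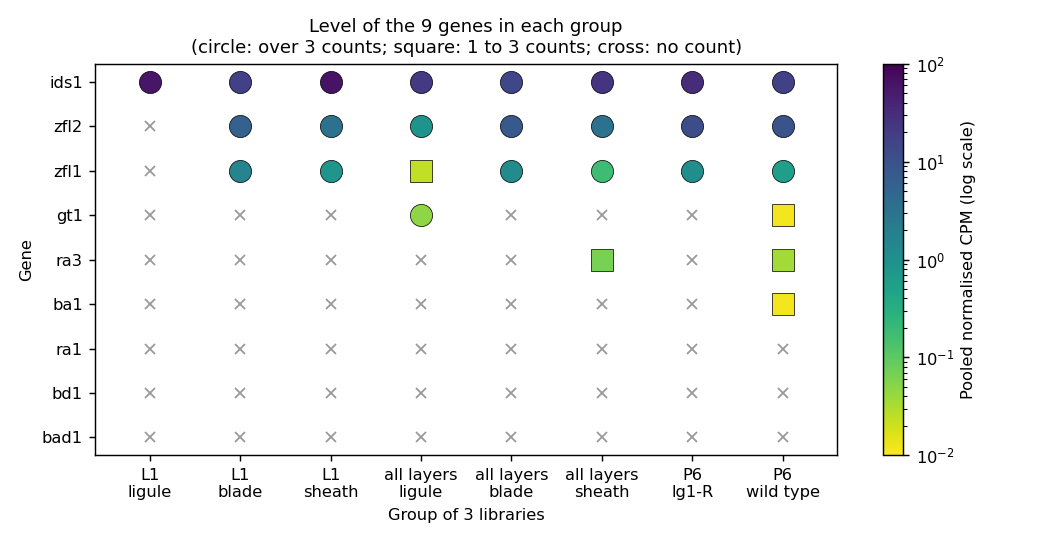
Level of each of the 9 genes (vertical axis) in each group of 3 libraries (horizontal axis), as pooled normalised CPM on a logarithmic colour scale; circles mark groups with over 3 counts, squares 1 to 3 counts and crosses no count. Counts above 3 appear for ids1 in every group, for zfl2 and zfl1 in most groups, and for gt1 in the all-layers ligule alone.

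Of these 6, ba1, gt1 and bad1 act on the start, outgrowth or angle of lateral organs, and all 3 were nearly silent. No count was found in any library for ba1, a basic helix-loop-helix factor needed to start axillary meristems, apart from 1 count in P6 wild-type replicate 1. For gt1, an HD-ZIP factor that represses the outgrowth of lateral buds, the all-layers ligule libraries held 5, 1 and 0 counts, P6 wild-type replicate 3 held 1, and the other 20 libraries none. The bad1 gene, which encodes a TCP factor that shapes the angle of tassel branches, had no count in any library.

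The other 3 near-silent genes, ra1, bd1 and ra3, limit branching of tassel and ear. The zinc-finger factor gene ra1 and the AP2/ERF factor gene bd1 had no count in any library. The trehalose-phosphate phosphatase gene ra3 had 6 counts in all: 2, 0 and 1 in the all-layers sheath libraries and 1 in each P6 wild-type library. It had none in any ligule library and none in P6 lg1-R. With no count, the level could be up to 0.0864 CPM over the adaxial L1 ligule libraries, 0.0241 CPM over the all-layers ligule libraries and 0.0378 CPM over the lg1-R libraries (3 counts over the group). Lower levels were not detectable at this depth. None of these 6 genes passed the filter on low counts, so no differences of them were tested in the main edgeR fits. Those with any count entered the alternatives without that filter, and their values there are not given.

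A gene that is low in the ligule enters a test only through the regions where it is high. The number of genes called among the 3 tested is therefore no measure for the set, and each is described on its own. In pieces of tissue, fewer cells of a type and less RNA per cell cannot be told apart.

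The duplicate genes zfl1 and zfl2 encode maize relatives of FLORICAULA and LEAFY, transcription factors of floral meristem identity that also affect tassel branch number. Their transcripts were lowest in the ligule in both captures. As close paralogs they may share reads, so the split of counts between them is uncertain.

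Within the adaxial L1, zfl2 had no count in ligule replicates 1, 2 and 3. The blade libraries of that layer stood at 4.72, 18.5 and 1.02 CPM (129, 134 and 13 counts), and the sheath libraries at 6.14, 3.33 and 0.912 CPM (36, 55 and 9 counts). Every ligule library thus lay below every blade and sheath library, a pattern shared by 7.89% of the 18761 genes tested there. An absence of counts from all 3 ligule libraries was found for 0.837% of those genes. Such genes pass the filter on low counts only through blade or sheath, so that share does not measure how rare the absence is.

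Against the level that 3 counts over the ligule group would give, zfl2 was at least 67.6-fold lower in the adaxial L1 ligule than in the blade (adjusted p = 0.011) and at least 35.9-fold lower than in the sheath (adjusted p = 0.023). In these comparisons 4.23% and 4.04% of genes were called lower. Both bounds depend on single libraries: the first was at least 41.0-fold without blade replicate 2 and 28.1-fold without ligule replicate 3, the deepest ligule library of that layer, and the second 14.9-fold without ligule replicate 3. The difference from the mean of blade and sheath was also called (adjusted p = 0.011, where 4.78% of genes were called lower), though not without ligule replicate 3 (adjusted p = 0.054). All 3 calls held without blade replicate 1, the library with many kn1 counts. The call against the sheath was lost without ligule replicate 1, 2 or 3 (adjusted p = 0.074, 0.055 and 0.090). Blade and sheath of this layer averaged 8.09 ± 9.23 and 3.46 ± 2.62 CPM, and this difference was within the spread of the libraries (log2 fold change 1.2, SE 1.09, adjusted p = 0.74).

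Through all layers, zfl2 was low rather than absent in the ligule, at 0.417, 1.29 and 0.999 CPM (18, 26 and 61 counts). The blade libraries stood at 6.10, 9.24 and 10.9 CPM and the sheath libraries at 3.21, 2.53 and 3.76 CPM. The 3 regions did not overlap, with ligule lowest, sheath between and blade highest. All ligule libraries lay below all blade and sheath libraries for 4.37% of the 22205 genes tested.

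The level of zfl2 fell to 0.901 ± 0.443 CPM in the all-layers ligule, against 8.74 ± 2.43 CPM in the blade (log2 fold change -3.29, SE 0.44, adjusted p = 0.00072, where 2.01% of genes were called lower). Against the sheath, at 3.17 ± 0.614 CPM, the log2 fold change was -1.83 (SE 0.43, adjusted p = 0.041, 1.37% of genes called lower). That call did not hold in a fit of all 24 libraries (adjusted p = 0.37) or when any of 6 libraries was left out (replicates 3 and 5 of ligule and of sheath, replicates 4 and 5 of blade; adjusted p = 0.071 to 0.13). Against the mean of both regions the log2 fold change of zfl2 was -2.56 (SE 0.41, adjusted p = 0.0021), where 1.83% of genes were called lower. Blade exceeded sheath by 1.46 (SE 0.41), which did not pass the threshold in edgeR (adjusted p = 0.13) but did with DESeq2 (adjusted p = 0.020) and with no filter on low counts (adjusted p = 0.024). In this comparison 1.58% of genes were called in either direction.

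The same ligule region thus gave counts of zfl2 through all layers and none in the adaxial L1. The all-layers ligule libraries held 105 counts and the adaxial L1 ligule libraries 0, so the level was at least 9.76-fold lower in the adaxial L1 (adjusted p = 0.0099, where 11.6% of genes were called lower and the median log2 fold change of all genes was -0.15). Without adaxial L1 ligule replicate 3 this call was lost (adjusted p = 0.067) and the bound was 4.07-fold. Cell layer and capture cannot be told apart here, since the layers were taken as separate sets of replicates. The test of whether the ligule's difference from blade and sheath was larger in the adaxial L1 than through all layers gave an adjusted p of 0.063 and was not called, where 2.27% of genes were called in either direction. It was called with DESeq2 (adjusted p = 0.012), with no filter on low counts (adjusted p = 0.0024), in a fit of all 24 libraries (adjusted p = 0.034), with the counts of zfl1 and zfl2 summed (adjusted p = 0.028) and without adaxial L1 blade replicate 3 or sheath replicate 3 (adjusted p = 0.024 and 0.046). In the other 18 of the 24 alternatives it stayed uncalled, with an adjusted p of up to 0.23. The summed counts gave the same calls as zfl2 alone in every other ligule comparison within a capture.

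The sister gene zfl1 followed the same order at a lower level. It had no count in the adaxial L1 ligule libraries, 32, 8 and 33 counts in the blade libraries of that layer (1.17, 1.11 and 2.59 CPM) and 6, 20 and 0 in the sheath libraries (1.02, 1.21 and 0 CPM). The ligule was at least 17.9-fold lower than the blade and at least 9.33-fold lower than the sheath. Without ligule replicate 3 these bounds were 7.44-fold and 3.89-fold, and without sheath replicate 2 the second was 4.42-fold. Neither difference was called (adjusted p = 0.083 and 0.14), nor was that from their mean (adjusted p = 0.085). DESeq2 called zfl1 lower against the blade (adjusted p = 0.021) and against the mean (adjusted p = 0.019), and so did edgeR with no filter on low counts (adjusted p = 0.045 and 0.049) and in a fit of all 24 libraries (adjusted p = 0.0033 and 0.0046). The last of these also called it against the sheath (adjusted p = 0.015).

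Through all layers zfl1 had 1, 2 and 0 counts in the ligule libraries, against 44, 24 and 46 in the blade libraries and 1, 3 and 4 in the sheath libraries. Ligule and blade did not overlap, while ligule and sheath did (0.023, 0.099 and 0 CPM against 0.062, 0.169 and 0.350 CPM). The share of all genes with ligule below blade alone was not computed. The blade level was 48.1 times that of the ligule, with a 95% interval of 16.1 to 237 that covers counting error only (log2 fold change of ligule over blade -5.35, SE 0.98, adjusted p = 0.0057). This call held in every alternative tried. The sheath level was 7.32 times that of the ligule (interval 1.76 to 42.8), and the difference was not called (adjusted p = 0.37). With so few ligule counts both ratios move with single libraries: without ligule replicate 4 they were 121 and 18.4, and without ligule replicate 5 they were 24.5 and 3.73. The difference from the mean of both regions was called (-3.95, SE 0.97, adjusted p = 0.034) but not when any of 5 libraries was left out (replicates 3 and 5 of ligule, 4 and 5 of blade, 5 of sheath; adjusted p = 0.070 to 0.16), and not with all 24 libraries fitted together (adjusted p = 0.067) or with the replicate number as a block (adjusted p = 0.075). That block follows the labelled numbers, which do not match how all-layers sheath replicates 3 and 4 deviated.

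**Figure D2:**
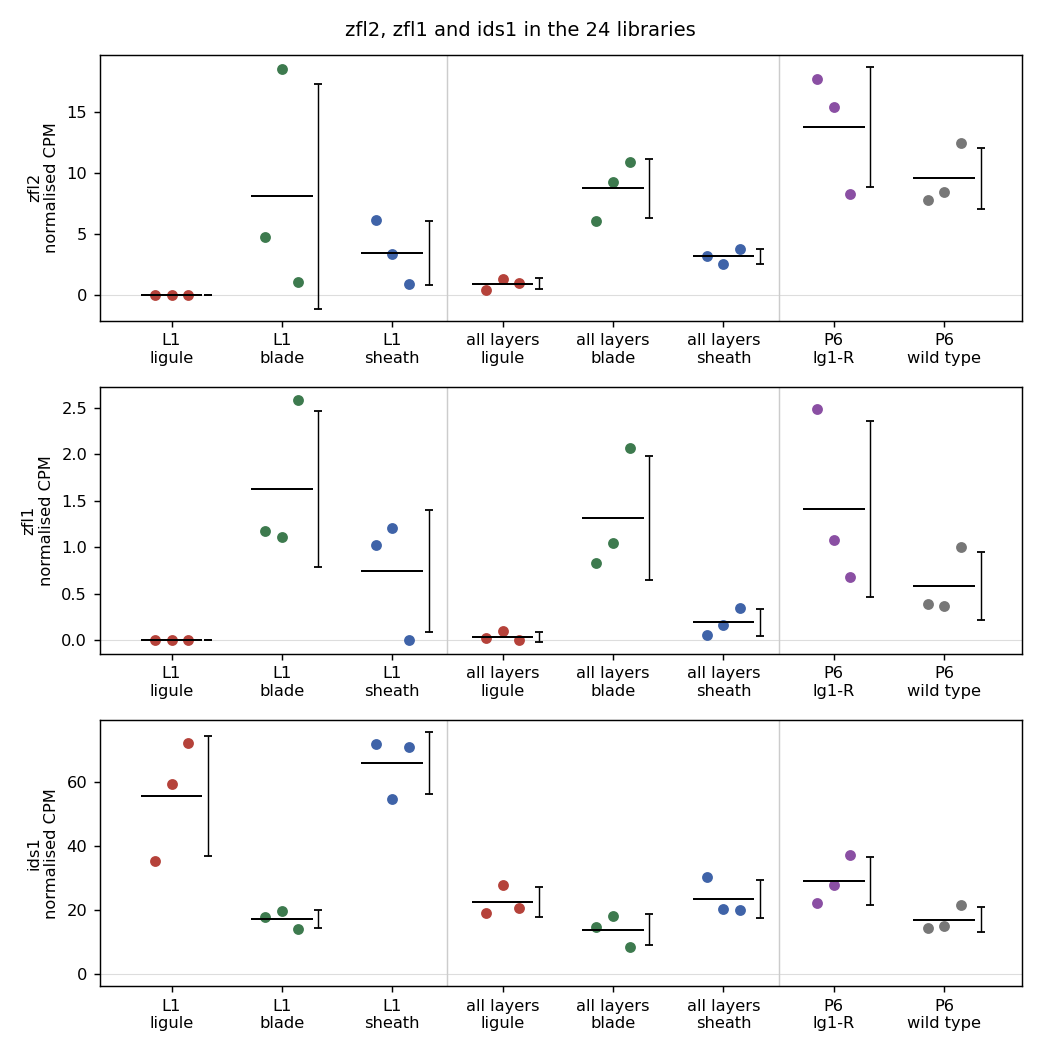
Normalised CPM of zfl2, zfl1 and ids1 (top to bottom, each with its own linear axis) in every library; points are libraries, horizontal bars group means and whiskers SD (n = 3), with the adaxial L1 groups at the left, the all-layers groups in the middle and the P6 genotypes at the right. The ligule points of zfl2 and zfl1 lie at or near 0, while ids1 is high in the ligule and sheath of the adaxial L1.

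Per length, the group mean of zfl2 exceeded that of zfl1 in the 5 groups where zfl1 had at least 10 counts. The mean FPKM (fragments per kilobase and 1e6 fragments, as deposited) of zfl2 over that of zfl1 was 2.74 in the adaxial L1 blade, 2.67 in the adaxial L1 sheath and 3.64 in the all-layers blade. In P6 the ratio was 5.63 in lg1-R and 8.94 in wild type. These are ratios of means, given without a test. The adaxial L1 blade value rests on replicate 2: without it the ratio was 0.870, and without replicate 3 it was 5.70. In replicate 3 zfl2 was the lower of the pair, with 0.567 FPKM (13 counts), against 2.52 FPKM (33 counts) for zfl1.

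In P6, zfl2 had 17.7, 15.4 and 8.28 CPM in lg1-R and 7.82, 8.42 and 12.4 CPM in wild type. The groups overlapped (log2 fold change 0.52, SE 0.30, adjusted p = 0.85). For zfl1 the lg1-R libraries stood at 2.48, 1.07 and 0.687 CPM and the wild-type libraries at 0.387, 0.371 and 1.01 CPM (1.2, SE 0.58, adjusted p = 0.78). These values overlapped too, through lg1-R replicate 3 and wild-type replicate 3. In this comparison 1 of 21249 genes was called, 0.00471%, and with DESeq2 150 genes were called, none of them among the 9.

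Over the 8 groups, the mean level of zfl2 was ordered, from high to low, as P6 lg1-R, P6 wild type, all-layers blade, adaxial L1 blade, adaxial L1 sheath, all-layers sheath, all-layers ligule and adaxial L1 ligule. Neighbours in the upper part of this order, down to the all-layers sheath, overlapped. The all-layers ligule lay below the all-layers sheath and above the adaxial L1 ligule with no overlap. For zfl1 the adaxial L1 blade (1.62 ± 0.837 CPM), P6 lg1-R (1.41 ± 0.944) and the all-layers blade (1.31 ± 0.663) were highest and overlapped, and both ligule groups were lowest.

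The AP2 factor gene ids1, which ends the growth of spikelet meristems, was the one gene of the 9 with a high level in the ligule. Its transcript was found in all 24 libraries, with 14072 counts in all. The adaxial L1 ligule libraries stood at 35.5, 59.6 and 72.3 CPM and the sheath libraries at 72.0, 54.8 and 71.2 CPM, while the blade libraries stood at 17.98, 19.8 and 14.0 CPM. Ligule and sheath overlapped, and both lay above every blade library, a pattern of low blade found for 2.46% of the genes tested in this layer.

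The level of ids1 rose to 55.8 ± 18.7 CPM in the adaxial L1 ligule, against 17.3 ± 2.93 CPM in the blade (log2 fold change 1.75, SE 0.32, adjusted p = 0.0043, where 2.25% of genes were called higher). Ligule and sheath, the sheath at 66.0 ± 9.68 CPM, differed by less than the spread between libraries (-0.22, SE 0.31, adjusted p = 0.78). Blade was lower than sheath (-1.97, SE 0.32, adjusted p = 0.0056, 1.1% of genes called lower). Both called differences held in every alternative tried. Against the mean of blade and sheath, ids1 did not pass (0.76, SE 0.26, adjusted p = 0.10). It passed with DESeq2 (adjusted p = 0.046) and without adaxial L1 ligule replicate 1 (adjusted p = 0.044).

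Through all layers the regions differed less. The ligule libraries stood at 19.3, 28.0 and 20.7 CPM, the blade libraries at 14.8, 18.2 and 8.64 CPM and the sheath libraries at 30.5, 20.4 and 20.1 CPM. The blade libraries were again the lowest, below all of the others, as for 3.41% of the genes tested through all layers. No difference was called: ligule against blade gave 0.71 (SE 0.30, adjusted p = 0.23), ligule against sheath -0.06 (SE 0.30, adjusted p = 0.97) and blade against sheath -0.77 (SE 0.30, adjusted p = 0.40). The difference between ligule and blade was not shown to be larger in the adaxial L1 than through all layers (0.98, SE 0.45, adjusted p = 0.39, where 1.85% of genes were called).

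Set against all layers, the adaxial L1 had more ids1 transcript in the ligule (55.8 ± 18.7 against 22.7 ± 4.68 CPM; log2 fold change 1.27, SE 0.32, adjusted p = 0.0081) and in the sheath (66.0 ± 9.68 against 23.7 ± 5.90 CPM; 1.46, SE 0.32, adjusted p = 0.0041). The blade did not differ beyond its spread (17.3 ± 2.93 against 13.9 ± 4.86 CPM; 0.29, SE 0.32, adjusted p = 0.64). Of all genes, 4.85% were called higher in the adaxial L1 ligule and 4.55% in the adaxial L1 sheath, and 9.38% were called in either direction in the blade. Cell layer and capture cannot be told apart in these comparisons either. The sheath and blade comparisons between layers were added after the values of ids1 were seen. The epidermis marker sum was higher in the adaxial L1 of every region and highest in its blade: its median was 1170, 1830 and 2260 CPM in the adaxial L1 ligule, sheath and blade, against 424, 616 and 661 CPM through all layers. Its part in the ids1 levels was not tested.

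In P6 the 3 lg1-R libraries, at 22.4, 28.1 and 37.3 CPM of ids1, all lay above the 3 wild-type libraries, at 14.5, 15.1 and 21.6 CPM. Such a separation was found for 4.78% of the genes tested. The mean was 29.3 ± 7.54 CPM in lg1-R and 17.1 ± 3.94 CPM in wild type (log2 fold change 0.78, SE 0.24), and the difference did not pass the adjustment (adjusted p = 0.45, unadjusted p = 0.0067; adjusted p = 0.039 with no filter on low counts).

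By FPKM, ids1 ranged from 31.5 ± 4.75 in the adaxial L1 sheath and 27.9 ± 9.07 in the adaxial L1 ligule, through 16.5 ± 6.00 in P6 lg1-R, 13.3 ± 1.93 in the all-layers ligule, 13.0 ± 2.54 in the all-layers sheath and 10.1 ± 2.44 in P6 wild type, to 7.44 ± 1.02 in the adaxial L1 blade and 7.36 ± 2.47 in the all-layers blade. The adaxial L1 sheath and ligule do not differ beyond their spread, nor do the 4 groups from lg1-R to wild type from their neighbours, nor the 2 blade groups from each other. On the same scale, per length, the mean of ids1 stood above that of zfl2 in each of the 8 groups. The nearest approach was in the all-layers blade (7.36 ± 2.47 against 5.81 ± 1.64 FPKM). In 2 single libraries zfl2 was the higher, namely all-layers blade replicate 5 (4.65 FPKM of ids1 against 7.32 FPKM of zfl2) and adaxial L1 blade replicate 2 (8.09 against 9.53 FPKM).

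**Figure D3:**
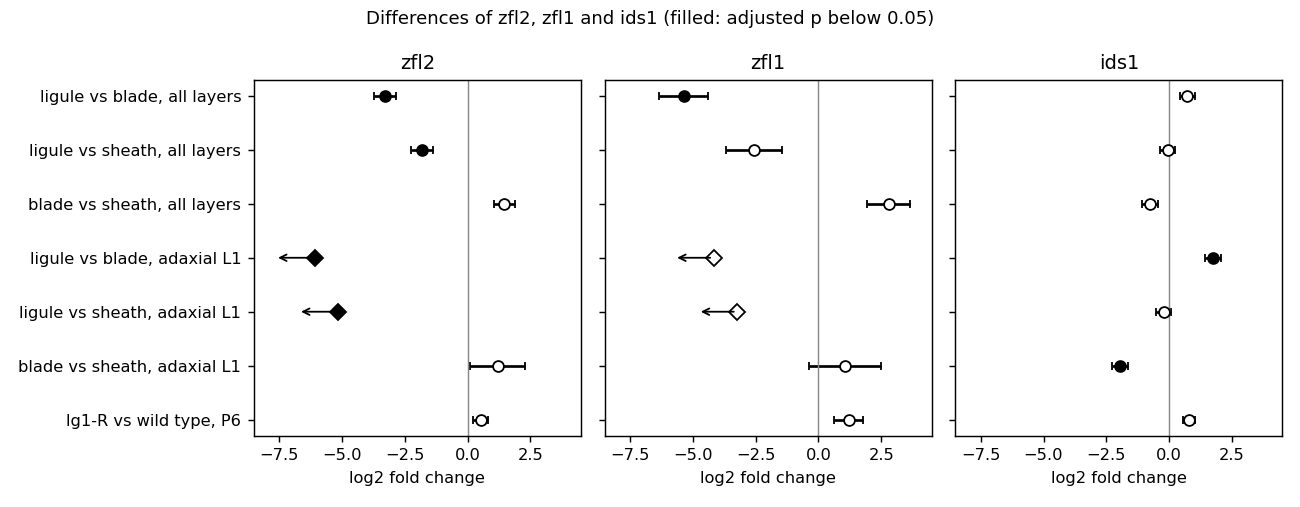
Log2 fold changes (horizontal axis) of zfl2, zfl1 and ids1 in the 7 comparisons of groups (rows, named as numerator against denominator), with bars of 1 SE; filled symbols had an adjusted p below 0.05, and diamonds with arrows mark the smallest drop that an absence of counts in the ligule allows. Filled symbols lie left of 0 for zfl2 and zfl1 in ligule comparisons, and for ids1 right of 0 in ligule against blade and left of 0 in blade against sheath, both in the adaxial L1.

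The sister of ids1, sid1 (GRMZM2G176175), had a lower CPM, a measure that is not per length, and no ligule difference of it was called. It stood at 3.00 ± 1.46 CPM in the adaxial L1 ligule, against 2.38 ± 1.37 CPM in the blade and 3.32 ± 1.96 CPM in the sheath. Its ligule was not called against the mean of both regions there (log2 fold change 0.17, SE 0.78, adjusted p = 0.94) or through all layers (0.27, SE 0.51, adjusted p = 0.87). With SEs of this size, a flat level was not shown.

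Other genes of inflorescence development were read from 3 lists, with 5 of 9 genes of axillary meristem initiation and outgrowth, 5 of 9 of meristem size and 13 of 19 of spikelet and branch identity and phase change matched to 1 identifier. Against the mean of blade and sheath through all layers, 0 of 4 tested axillary meristem genes, 1 of 4 meristem size genes (fea3, higher) and 1 of 7 spikelet and branch genes (tga1, higher) were called, where 2.74% of all genes were called higher. The list medians of the log2 fold change were 0.28, 0.23 and 0.06, and that of all genes was 0.03. Within the adaxial L1 the called genes were 0 of 4, 1 of 4 (fea3, higher) and 4 of 8 (tga1 and zap1 higher, ub2 and dlf1 lower), with medians of 0.12, 0.19 and -0.19, against 0.00 for all genes, of which 2.95% were called higher and 4.78% lower. There zap1 passed the filter on low counts only through the ligule, where it was high, so the count that includes it is no measure for that list. None of the 3, 4 and 7 genes tested in lg1-R was called.

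**Figure D4:**
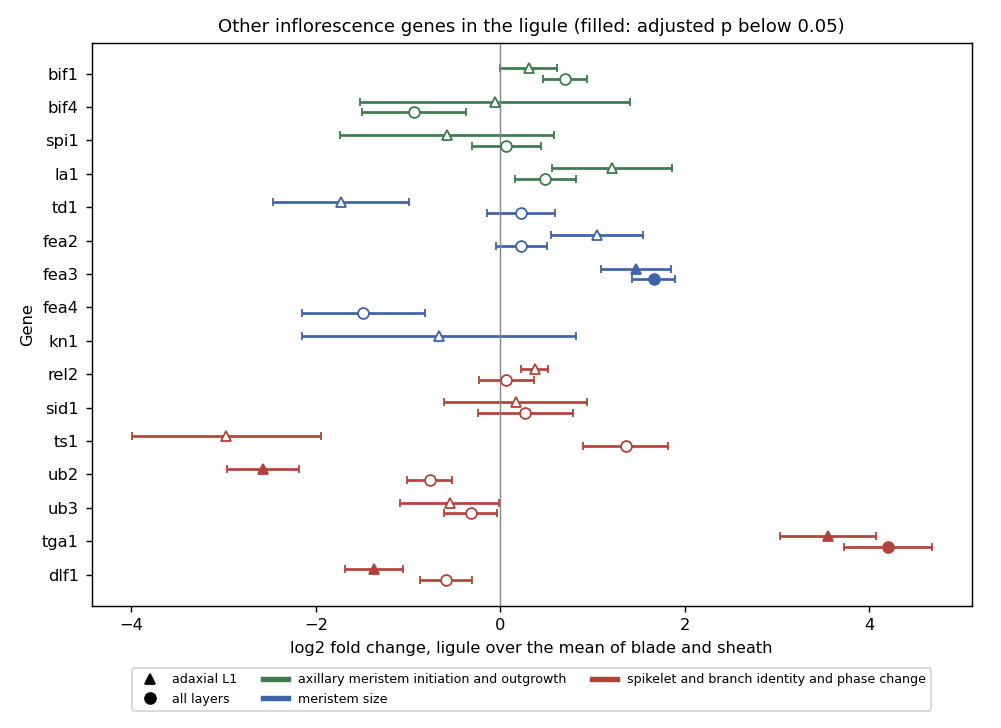
Log2 fold change of the ligule over the mean of blade and sheath (horizontal axis, bars of 1 SE) for each tested gene of the 3 further lists (vertical axis, colours), in the adaxial L1 (triangles) and through all layers (circles); filled symbols had an adjusted p below 0.05, and zap1 is left out because its sheath groups had no count. The 2 filled symbols of tga1 lie farthest right, those of fea3 lie right of 0, and the filled triangles of ub2 and dlf1 lie left of 0.

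The meristem size gene fea3 (GRMZM2G166524) encodes a leucine-rich repeat receptor-like protein that restrains stem cell number. Its all-layers ligule libraries, at 20.9, 22.9 and 28.8 CPM, lay above all blade libraries (5.38, 6.01 and 3.73 CPM) and all sheath libraries (15.3, 9.63 and 10.4 CPM; log2 fold change 1.66, SE 0.23, adjusted p = 0.00079). The share of all genes with such a separation was not computed. In the adaxial L1 it stood at 42.3, 28.7 and 18.5 CPM in the ligule, 6.22, 11.5 and 4.70 CPM in the blade and 21.3, 12.4 and 16.6 CPM in the sheath. Ligule and sheath overlapped there, and the call (1.47, SE 0.38, adjusted p = 0.031) was lost without any of 6 libraries (blade replicate 1 or 3, ligule replicate 1 or 2, sheath replicate 2 or 3; adjusted p = 0.058 to 0.19).

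Of the SBP-box genes on the lists, tga1 (GRMZM2G101511), which controls the casing of the kernel, was higher in the ligule and ub2 (GRMZM2G160917) lower. The adaxial L1 libraries of tga1 had 27.1, 23.4 and 21.3 CPM in the ligule, against 0.659, 0.138 and 1.72 CPM in the blade and 3.24, 4.66 and 7.40 CPM in the sheath. For ub2 the libraries of that layer stood at 8.38, 5.64 and 14.7 CPM in the ligule, 38.3, 59.2 and 27.3 CPM in the blade and 77.4, 65.8 and 118 CPM in the sheath. Neither gene's ligule libraries overlapped with blade or sheath in the adaxial L1. Of the genes tested there, 7.89% had all ligule libraries below all blade and sheath libraries. The share with all ligule libraries above was not computed. Against the mean of both regions there, the log2 fold change was 3.55 for tga1 (SE 0.52, adjusted p = 0.00085) and -2.57 for ub2 (SE 0.39, adjusted p = 0.0010), and both calls held in every alternative tried. Through all layers tga1 was also higher in the ligule (4.202, SE 0.47, adjusted p = 0.00021). Through all layers ub2 did not pass (-0.77, SE 0.24, adjusted p = 0.10; 0.042 with DESeq2), at 18.3 ± 4.61 CPM in the ligule, 29.2 ± 9.35 CPM in the blade and 33.9 ± 1.84 CPM in the sheath. The third gene of that family on the lists, ub3 (GRMZM2G460544), followed neither pattern. It stood at 6.42 ± 4.44 CPM in the adaxial L1 ligule, 5.19 ± 0.719 CPM in the blade and 17.7 ± 4.28 CPM in the sheath and was not called there (-0.55, SE 0.54, adjusted p = 0.66) or through all layers (-0.32, SE 0.29, adjusted p = 0.67).

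The MADS-box gene zap1 (GRMZM2G148693), a relative of APETALA1, was found in the ligule almost alone. Its adaxial L1 ligule libraries held 129, 17 and 45 counts, against 0, 4 and 0 in the blade and none in the sheath. That is a level 65.0 times that of the blade, with a 95% interval of 25.0 to 241 for counting error, and at least 59.1-fold higher than in the sheath (against the mean of both, adjusted p = 0.010; 0.066 without ligule replicate 1). Without that library, which held most of the counts, the folds were 30.6 and at least 27.8. They were 119 and at least 109 without ligule replicate 3, the first was 27.5 without blade replicate 1, and the second at least 28.8 without sheath replicate 2. Through all layers the ligule held 57, 7 and 29 counts, the blade 0, 2 and 0 and the sheath none, too few to be tested. In the adaxial L1 zap1 entered the test only through its ligule libraries. The bZIP gene dlf1 (GRMZM2G067921), which promotes flowering, was lower in the adaxial L1 ligule (8.85, 15.8 and 9.72 CPM) than in the blade (30.8, 24.9 and 29.2 CPM) and the sheath (31.4, 38.7 and 26.9 CPM; -1.37, SE 0.32, adjusted p = 0.016). Its call was lost without ligule replicate 1 or 3 (adjusted p = 0.070 and 0.091).

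Against the blade alone, 1 of 4 tested axillary meristem genes was called in each capture, where 2.74% of all genes were called higher through all layers and 2.25% in the adaxial L1. Both genes were named after their values were seen, and both were low in the blade rather than high in the ligule alone. Through all layers it was bif1 (GRMZM2G130953), an auxin signalling repressor gene, with 33.7 ± 7.62 CPM in the ligule, 14.9 ± 2.53 CPM in the blade and 29.3 ± 9.53 CPM in the sheath (ligule over blade 1.19, SE 0.29, adjusted p = 0.030; 0.051 with the replicate number as a block). For the adaxial L1 it was la1 (GRMZM2G135019), a gene of shoot gravitropism, with 5.21 ± 0.911 CPM in the ligule, 0.415 ± 0.367 CPM in the blade and 11.8 ± 6.85 CPM in the sheath (ligule over blade 3.56, SE 0.87, adjusted p = 0.025). Neither was called against the sheath (adjusted p = 0.86 for bif1 and 0.49 for la1).

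Both calls were lost without some single libraries: blade replicate 3, 4 or 5 or ligule replicate 4 or 5 for bif1 (adjusted p = 0.065 to 0.12), and blade replicate 1 or 3 or ligule replicate 2 or 3 for la1 (adjusted p = 0.056 to 0.071). Through all layers la1 stood at 7.31 ± 0.498 CPM in the ligule, 3.09 ± 1.87 CPM in the blade and 8.97 ± 1.87 CPM in the sheath. Its difference from the blade there was not called in edgeR (adjusted p = 0.10) but was with DESeq2 (adjusted p = 0.032), with no filter on low counts (adjusted p = 0.022) and without blade replicate 4 (adjusted p = 0.025).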

How the data were processed

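Both kinds of deposited values were used: expected counts, the authors' estimated counts per gene, and the authors' deposited FPKM, with 109715 identifiers in each of 24 libraries. TopHat2 2.0.10 and Cuffdiff 2.1.1 are listed in the submitters' processing notes, with no roles stated. Genome build, annotation and strandedness are not given in those sources, so no coordinates or sequences are printed. Counts were rounded and tested with edgeR 4.0.16 in R 4.3.3 (quasi-likelihood, robust, TMM factors, the filterByExpr minimum at 10 counts and 15 in total, Benjamini-Hochberg threshold 0.05). Separate fits covered the 9 adaxial L1, the 9 all-layers and the 6 P6 libraries, and the 18 P7 libraries for comparisons between layers. Each SE was obtained from the F statistic, as the size of the log2 fold change over the root of F. Normalised CPM use TMM factors over all 24 libraries. The deposited FPKM served only for levels between genes and groups. The scripts were tested on simulated data.

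A RefSeq gene table of Zm-B73-REFERENCE-NAM-5.0 gave the names: 18259 identifiers matched exactly 1 of its loci, and 519 matched several and were left unnamed. The 9 genes, the lists and the tests were chosen with earlier results of these data known. Named in any case were the 9 genes, and from each list up to 4 genes per comparison called in the ligule against the mean of blade and sheath or in lg1-R, by smallest p. Alternatives were DESeq2 1.42.0, RLE factors, no filter on low counts, a fit of all 24 libraries, a replicate block, each library left out, and summed counts of zfl1 and zfl2 (added after seeing the data). Equally numbered all-layers ligule and blade libraries deviated together from their group means (correlations 0.411, 0.346 and 0.230, against -0.376 to 0.080 for unequal numbers), so the block is given beside their comparison where it changes a call. This pairing comes from the data, since the labels do not state one. Folds with each library left out were added after seeing the data. Each library is a separate pool per the labels. Intervals and floors cover counting error only, since amplified reads are not independent molecules. Figures were drawn with matplotlib 3.10.9.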

Additional observations from a re-analysis of the deposited data

Results flagged for a closer look

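For 2 genes of the spikelet and branch list, the difference of the ligule from the mean of blade and sheath itself differed between the adaxial L1 and all layers, by the interaction term of the fit of the 18 P7 libraries (adjusted p below 0.05, met by 2.27% of the genes tested). Here too, cell layer and capture cannot be told apart. For ub2 the difference between the layers was -1.83 on the log2 scale (-1.835, SE 0.44, adjusted p = 0.025). Its ligule was lower by 2.57 in the adaxial L1 and by 0.77 through all layers. The call was lost without all-layers blade replicate 4, ligule replicate 3 or sheath replicate 3, or adaxial L1 ligule replicate 1 or 2 (adjusted p = 0.050 to 0.095).

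For ts1, a lipoxygenase gene of tassel sex determination that was named after its values were seen, the difference was -4.38 (SE 1.05, adjusted p = 0.026). The adaxial L1 ligule libraries held 0, 0.806 and 0.740 CPM, against 1.68, 0.829 and 3.45 CPM in the blade and 7.504, 11.7 and 5.07 CPM in the sheath. Through all layers the ligule held 6.85, 8.51 and 5.68 CPM, against 1.15, 1.83 and 1.93 CPM in the blade and 3.83, 1.13 and 9.09 CPM in the sheath. In edgeR neither layer alone gave a call (adjusted p = 0.11 in the adaxial L1 and 0.14 through all layers). DESeq2 and a fit of all 24 libraries called ts1 lower in the adaxial L1 (adjusted p = 0.0047 and 0.0056), and edgeR called it higher through all layers with no filter on low counts or without sheath replicate 5 (adjusted p = 0.0024 and 0.022). The call of the difference between layers was lost without any of 6 single libraries (all-layers blade replicate 3, ligule replicate 3 or 4 or sheath replicate 3, or adaxial L1 ligule replicate 1 or 3; adjusted p = 0.050 to 0.074).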

How the results depend on the processing

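The calls against the blade in each capture for zfl2 and ids1 (adaxial L1) and for zfl2 and zfl1 (all layers), and the lower ids1 of blade against sheath in the adaxial L1, kept direction and call under every alternative run. RLE factors changed no call of the 9 genes. No result rests on fewer than 3 libraries per group other than those that leave 1 out. Depth limits the 6 genes near 0 and the zero counts of zfl1 and zfl2 in the adaxial L1 ligule, where replicate 2 was the shallowest library. The cause was not tested for any change below.

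The counts of genes called are given in the order ligule against the mean of blade and sheath, ligule against blade, ligule against sheath and blade against sheath. Through all layers they were 1014, 1054, 619 and 350, with DESeq2 1672, 1784, 1073 and 689, and without the filter on low counts 1890, 1984, 1214 and 827. A fit of all 24 libraries gave 352 for ligule against sheath and 166 for blade against sheath. In the adaxial L1 they were 1451, 1216, 1158 and 367, with DESeq2 2425, 2133, 2254 and 993, without the filter 2317, 1886, 1872 and 906, and with all 24 libraries fitted together 3858, 3495, 3558 and 1786. For lg1-R against wild type 1 gene was called, 150 with DESeq2, 482 with no filter and 0 in a fit of all 24 libraries. For the ligule's difference in the adaxial L1 minus that through all layers, 506 genes were called, 1003 with DESeq2, 1029 with no filter and 816 in the fit of all 24 libraries.

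Only 3 of the 9 genes passed the filter, so counts of the 9, here and below, are no measure for the set. The fit of all 24 libraries tested 22843 genes and called 695 against the mean through all layers. DESeq2 tested 25758 in blade against sheath through all layers, 20972 in the adaxial L1 and 21755 between layers. With no filter these numbers were 37375, 29014 and 38047, and 34650 in P6. Of the 9 genes, a fit of all 24 libraries called 1 against the mean through all layers (2 in the 9 libraries alone), 0 against the sheath through all layers (1), and 2 against the mean and 2 against the sheath in the adaxial L1 (1 each). DESeq2 called 1 in blade against sheath through all layers (0 in edgeR), 3 against the mean in the adaxial L1 and 1 in the difference between layers (0). With no filter, 2 were called in blade against sheath through all layers, 2 against the mean in the adaxial L1, 1 in lg1-R against wild type (0) and 1 in the difference between layers, where the fit of all 24 libraries also called 1.

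Leaving out 1 library at a time gave, through all layers, 639 to 1223 genes called against the mean (1 to 2 of the 9), 598 to 1600 against the blade (2 to 2), 374 to 578 against the sheath (0 to 1) and 113 to 355 in blade against sheath (0 to 0). In the adaxial L1 the ranges were 826 to 1438 (0 to 2), 706 to 1224 (2 to 2), 640 to 1322 (0 to 1) and 201 to 397 (1 to 1). They were 0 to 58 in lg1-R (0 to 0), 2629 to 4115 for the ligule of the adaxial L1 against all layers (1 to 2), and 338 to 562 for the difference between layers (0 to 1). The 58 calls in lg1-R came without wild-type replicate 3, and 43 came without lg1-R replicate 3.

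Signs turned only in differences that were not called. For ids1, ligule against sheath through all layers ranged from -0.20 to 0.17 as single libraries were left out (0.052 without ligule replicate 3 and 0.17 without sheath replicate 3). In the adaxial L1 it ranged from -0.44 to 0.011 (the highest without ligule replicate 1). For zfl2, blade against sheath in the adaxial L1 ranged from -0.28 (without blade replicate 2) to 1.89. The adaxial L1 against all layers ranged from -0.59 to 0.54 in the sheath (below 0, at -0.058 and -0.59, without all-layers sheath replicate 4 or adaxial L1 sheath replicate 1) and from -1.63 to 0.38 in the blade (above 0, at 0.055, 0.14 and 0.38, without all-layers blade replicate 5 or adaxial L1 blade replicate 1 or 3). For zfl1 the blade value ranged from -0.23 (without adaxial L1 blade replicate 3) to 0.77. For ub2, lg1-R against wild type ranged from -0.34 to 0.18 (0.065 without wild-type replicate 2 and 0.18 without lg1-R replicate 2). For fea3 the difference between layers ranged from -0.57 to 0.062 (0.018 without adaxial L1 blade replicate 2 and 0.062 without adaxial L1 ligule replicate 3).

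Beyond the all-layers ligule and blade, equal replicate numbers did not pair the libraries consistently. Deviations of equally numbered libraries correlated at -0.448 to 0.411 over all pairs of regions through all layers. The range was -0.053 to 0.044 in the adaxial L1 and -0.168 to 0.040 in P6. In that order, 5 of 9, 3 of 9 and 1 of 6 libraries correlated best with their own number. All-layers sheath replicate 3 went with replicate 4 of ligule and blade (0.471 and 0.311). Sheath replicate 4 went with their replicate 3 (0.478 and 0.402), and sheath replicate 5 with their replicate 5 (0.264 and 0.267). The block used the labelled numbers, so for all-layers sheath replicates 3 and 4 it does not follow these correlations. With the replicate block, 759, 769, 431 and 185 genes were called through all layers, 1258, 1019, 913 and 300 in the adaxial L1, 4 in lg1-R and 406 in the difference between layers. Of the 9 genes, 1 was called against the mean through all layers (zfl1 had an adjusted p of 0.075), and the block changed no other call of them. Among the other genes it ended the calls of bif1 against the blade (adjusted p = 0.051) and of ub2 between layers (adjusted p = 0.054).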

Other observations

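Over the 24 libraries, the named genes with the pattern most like that of zfl2 were EMB1417, Sod3.2 and mips2 (Pearson r of log2(CPM + 1) of 0.833, 0.831 and 0.822). For zfl1 they were A1 (0.838), ABP2 (0.746) and EREB20 (0.735), and for ids1 TRAF18 (0.836), EREB55 (0.807) and cad1 (0.797). These are descriptions over libraries that share captures and depth, chosen as the highest of 1679 or 1680 named genes. A high r need not mean a drop in the ligule in both captures. Through all layers EMB1417 stood at 11.4 ± 0.510 CPM in the ligule, 13.1 ± 0.852 CPM in the blade and 12.5 ± 1.89 CPM in the sheath. In the same order mips2 stood at 21.0 ± 6.73, 109 ± 29.8 and 99.5 ± 16.4 CPM, and Sod3.2 at 224 ± 30.2, 298 ± 9.44 and 275 ± 44.2 CPM. In the adaxial L1 the ligule mean was the lowest for each of these genes, given without a test. EMB1417 stood there at 6.20 ± 2.98, 19.0 ± 9.36 and 15.5 ± 9.46 CPM, again in that order. The values were 0.170 ± 0.0897, 63.9 ± 12.0 and 9.78 ± 3.69 CPM for mips2. For Sod3.2 they were 124 ± 23.3, 340 ± 119 and 302 ± 58.6 CPM.

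The A1 transcript stood at 0.464 ± 0.761 CPM in the adaxial L1 ligule, against 7.51 ± 4.51 CPM in the blade and 0.968 ± 1.68 CPM in the sheath (SD, n = 3 each). Through all layers it stood at 0.184 ± 0.270 CPM in the ligule, 4.51 ± 2.57 CPM in the blade and 0.487 ± 0.638 CPM in the sheath.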
